A study of Drosophila melanogaster with 12 samples.

Results

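Soma-dominant transposons are the mobile elements that the deposited tables class as belonging mainly to the somatic cells of the fly ovary. They were taken as every element that carries this class in the tables, which gave 6 of 126 transposons: Tabor (FBgn0045970), ZAM (FBgn0023131), gtwin (FBgn0063436), gypsy (FBgn0001167), gypsy5 (FBgn0063432), and gypsy10 (FBgn0067387). The same 6 carried the class in each of the 12 libraries. Of the other elements, 10 were classed as intermediate, 19 as germline dominant, and 91 had no class. How the classes were assigned is not given in the sources used here, and the libraries do not separate germline from somatic cells, so the class name could not be checked against cell type markers.

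All 6 are long terminal repeat retrotransposons of the gypsy group, which copy themselves through RNA. gypsy and ZAM are known as errantiviruses, elements that carry an envelope gene and can pass from the follicle cells, the somatic cells that surround the germline, into the oocyte, and gtwin is a close relative of gypsy. In follicle cells these elements are held down by piRNAs, small RNAs that guide PIWI proteins to matching transcripts. Many of these piRNAs come from flamenco, a locus on the X chromosome whose single long transcript runs through old insertions in mostly the same orientation and so yields RNAs antisense to the elements.

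The fly ovary uses 3 PIWI proteins. Piwi is found in the nuclei of both germline and follicle cells, whereas Aub and Ago3 are proteins of the germline. In the germline, Aub and Ago3 amplify piRNAs by ping-pong, in which Aub loaded with an antisense piRNA cuts a transposon transcript and the cut end becomes a sense piRNA in Ago3, which in turn cuts an antisense precursor. Follicle cells, which lack Aub and Ago3, load mainly antisense piRNAs into Piwi without this cycle.

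piRNAs were recovered by immunoprecipitation of Piwi, Aub, or Ago3 from ovaries of Drosophila melanogaster females aged 2 to 5 d and sequenced. In aubWT and aubRK ovaries, both copies of endogenous aub were null (alleles QC42 and HN2), and a UAS transgene for 3xHA-tagged Aub was switched on by nos-Gal4, a driver that acts in the germline only, so follicle cells received no transgene. The aubRK protein has the 4 arginines of its N-terminus, which are normally methylated for binding Tudor proteins, replaced by lysines. csulRM50 flies carry a loss-of-function allele of csul, which encodes the enzyme that methylates these arginines, and w1118 is their wild-type reference. y w (y1 w1) flies have endogenous wild-type Aub. Piwi was sequenced in aubWT (1 library) and aubRK (2 libraries), Aub in aubWT, aubRK, w1118, and csulRM50 (1 library each), and Ago3 in the same genotypes and in y w (1 library each).

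Values are read copies per 1000000 copies on transposons in the same library (CPM), and the sense share is the percentage of an element's copies that match its sense strand. Libraries held from 1338017 to 47217032 copies on transposons, and no member had fewer than 674 copies in any library, so 3 copies, the smallest number taken as detectable, came to at most 2.24 CPM. Wilson 95% intervals reached at most 7.55% of a member's CPM and 2.87 points of its sense share to either side and they cover counting error only, since copies made by PCR are not independent molecules. Each group but Piwi aubRK is a single library, and differences between single libraries have no replicate check and no p-value. For these the number of members past 2-fold is given beside the percentage of all tested transposons past it, the 123 that averaged 100 copies or more per library, all 6 members among them. The files hold no element lengths, so levels are compared between libraries and not between elements.

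Technical features of the libraries run alongside the genotypes. Ago3 aubWT, Piwi aubWT, and the second Piwi aubRK library carried an 8-nt random barcode used to remove PCR duplicates, and the other libraries had none, so for Ago3 the genotype aubRK and the adaptor changed together and cannot be told apart, while y w has the adaptor of Ago3 aubRK. The w1118 and csulRM50 libraries were made with antibodies of another laboratory. Their isolation and library preparation also followed a different published description from that of the other libraries. In the Aub aubWT and aubRK libraries the copies of a member came from only 342 to 1094 distinct entries. In the barcoded libraries every copy was its own entry, so counting identical reads once changed only the libraries without a barcode. Between a barcoded library and one without, that setting compares unlike counts and is not a like-for-like check. Read copies are unlike there as well, since only the barcoded libraries had PCR duplicates removed. The files hold no measure of which protein was precipitated. In transposon make-up, the Ago3 aubRK library was close to Piwi aubRK: 0 of 123 transposons differed between them by more than 2-fold in either direction (0%), whereas 44.7% differed between Piwi and Ago3 in aubWT. Ago3 and Aub in csulRM50 also had 0% past 2-fold. Against Ago3 y w, 10.6% were over 2-fold higher and 17.9% lower in Ago3 aubRK, and 6.5% and 48.8% in Ago3 aubWT. Make-up thus did not set Ago3 aubRK further from y w than aubWT was. In orientation it did differ from the other Ago3 libraries. Over all transposons, 31.1% of the Ago3 aubRK copies were sense, against 41.9% to 56.2% in the other 4 Ago3 libraries and 24.7% to 26.7% in the Piwi libraries. Comparisons that rest on this library are therefore given beside ones that do not. In whole ovaries, fewer somatic cells and fewer piRNAs per somatic cell cannot be told apart.

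Soma-dominant piRNAs took a larger share of the Piwi libraries than of the Aub libraries. In aubWT, the 6 elements took 4.93% of the Piwi library (95% interval 4.9 to 4.96), 0.307% of the Aub library (0.305 to 0.309), and 0.483% of the Ago3 library (0.478 to 0.487). The class was thus 16-fold higher with Piwi than with Aub and 10.2-fold higher than with Ago3. In aubWT the Aub library had no barcode while the Piwi and Ago3 libraries did. Against Aub, protein and adaptor thus changed together and cannot be told apart. With identical reads counted once, the class took 0.429% of Aub aubWT, the barcoded libraries being unchanged. All 6 members were more than 2-fold higher with Piwi than with Aub, where 30.9% of all transposons were, and 0 were lower, where 8.94% were. Against Ago3 in aubWT, likewise, 6 members were more than 2-fold higher with Piwi (37.4% of all transposons) and 0 lower (7.32%). The median member differed between Piwi and Aub by 3.98 on the log2 scale, and the median of all transposons by 0.46.

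The single members kept to this order. gypsy10 had 12584 CPM with Piwi, 549.6 with Aub, and 1078 with Ago3 in aubWT, a 22.9-fold difference between Piwi and Aub. Tabor had 13166, 760.1, and 1095 CPM in the same order and differed 17.3-fold. These 2 elements showed the widest gaps between Piwi and Aub of the class. gtwin had 8014, 503, and 846 CPM with Piwi, Aub, and Ago3, and the 15.9-fold gap to Aub lay near the middle of the class. gypsy5 had 6611, 420.3, and 808 CPM, 15.7-fold higher with Piwi than with Aub. ZAM and gypsy showed the smallest gaps between Piwi and Aub. ZAM had 3255 CPM with Piwi, 281 with Aub, and 489 with Ago3, 11.6-fold higher with Piwi than with Aub. gypsy had 5623, 559.8, and 510.2 CPM, a 10.04-fold difference, and in read copies was the only member with less in Ago3 than in Aub, by −0.13 on the log2 scale, a sign that turned to 0.022 relative to the median of all transposons.

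Between Ago3 and Aub in aubWT, 0 members differed by more than 2-fold in either direction, where 20.3% of all transposons did. The other 5 members were higher in Ago3, with log2 differences of 0.53 to 0.97. With identical reads counted once, which changed the Aub library but not the barcoded Ago3 library, Tabor turned to −0.054 and ZAM to −0.047. With sense copies alone, gypsy5 turned to −0.79, gypsy10 to −0.24, and gtwin to −0.014. In aubRK, the pair of Piwi libraries was again far above the Aub library for every member. There the class took 6.05% ± 0.139 (SD, n = 2) of Piwi and 0.603% of Aub, a 10.04-fold difference, with 6 members more than 2-fold higher (23.6% of all transposons) and 0 lower (5.69%). The gap between the groups was many times the difference between both Piwi libraries, among which 0 members differed by more than 2-fold (4.88% of all transposons) and the largest log2 difference was −0.18, in Tabor.

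**Figure D1:**
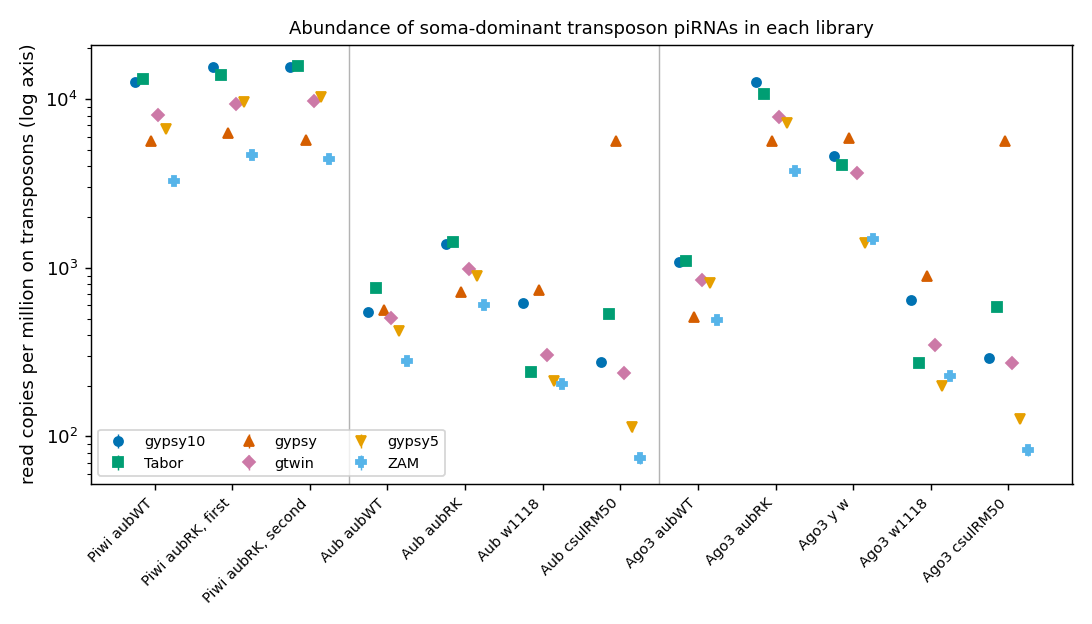
Read copies per 1000000 on transposons (CPM, log axis) of each soma-dominant transposon in each of the 12 libraries, 1 point per element and library, with Wilson 95% intervals that are mostly smaller than the points. The Piwi libraries and the Ago3 aubRK library lie at 3255 to 15823 CPM, highest for each element but gypsy, for which Ago3 y w (5900.0 CPM) lies among them, and gypsy alone stands above the other elements in both csulRM50 libraries (5622 and 5622 CPM).

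With Piwi, the soma-dominant piRNAs were close to their aubWT level when germline Aub carried the arginine to lysine changes. The class took 4.93% of Piwi aubWT and 5.95% and 6.15% of the Piwi aubRK libraries. 0 members differed by more than 2-fold in either direction (11.4% of all transposons). gypsy5 had 6611 CPM in aubWT and 9661 and 10250.2 in aubRK. Both aubRK libraries lay above aubWT and the log2 fold change was 0.59 (SE 0.17), the 1 member that passed the edgeR quasi-likelihood test (adjusted p = 0.00322), where 13% of all transposons rose. ZAM had 3255 CPM in aubWT and 4635 and 4412 in aubRK, a log2 fold change of 0.47 (SE 0.21) with an edgeR adjusted p of 0.071. Both values again lay above aubWT, without passing the test. gypsy10 had 12584 CPM in aubWT and 15522 and 15534 in aubRK, and gtwin had 8014 in aubWT and 9404 and 9727 in aubRK. Tabor had 13166 CPM in aubWT and 13953 and 15823 in aubRK, and gypsy 5623 in aubWT and 6326 and 5726 in aubRK. For these 4 members the differences were small, with log2 fold changes of 0.10 to 0.30. How often both aubRK libraries lay on the same side of aubWT over all transposons was not counted, so lying above it sets no member apart. Counting identical reads once changed only the first aubRK library, since the other Piwi libraries were barcoded. gypsy10 (9162 and 15534 CPM in aubRK) and Tabor (10485 and 15823) then lay on both sides of aubWT. Their log2 differences turned to −0.027 and −0.0013, which rest on unlike counts in the aubRK pair.

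The test rests on 3 libraries with 1 residual degree of freedom and an infinite prior one, so that its errors and p-values come almost wholly from the spread over all transposons. It assumes that the lone aubWT library varies as the aubRK pair does, and nothing in the labels says that the pair came from separate groups of flies, so its spread may be technical. Counting identical reads once changed only the first aubRK library, so that setting is not a like-for-like check of the test. The read copies tested are unlike too, since the first aubRK library alone kept its PCR duplicates. With TMM factors or DESeq2, ZAM passed as well (adjusted p = 0.0314 and 0.0337), and with identical reads counted once no member passed (gypsy5 adjusted p = 0.998).

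With Aub, soma-dominant piRNAs were a small share in both genotypes, but a larger one when Aub lacked its methylated arginines. The class took 0.307% of Aub aubWT and 0.603% of Aub aubRK, a 1.96-fold difference. All 6 members were higher in aubRK, 3 of them by more than 2-fold (12.2% of all transposons) and 0 lower by that much (5.69%). gypsy10 had 549.6 CPM in aubWT and 1392 in aubRK, or 2.53-fold more. ZAM had 281 and 603 CPM, or 2.15-fold more, and gypsy5 had 420.3 and 895, or 2.13-fold more. These 3 passed 2-fold, gtwin and Tabor came just short of it, and gypsy differed least. gtwin had 503 CPM in aubWT and 986 in aubRK (1.96-fold), Tabor had 760.1 and 1428 (1.88-fold), and gypsy had 559.8 and 723 (1.29-fold). Relative to the median of all transposons, which differed by 0.18 on the log2 scale, 1 member, gypsy10, stayed past 2-fold, and the same number did with DESeq2 size factors.

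The difference in Aub lay in the antisense piRNAs. Antisense copies of the class came to 2701 CPM in aubWT and 5623 in aubRK, whereas sense copies came to 372 and 404 CPM. Sense copies of Tabor were lower in aubRK (41.7 CPM in aubWT and 21.4 in aubRK), and those of gtwin were higher (79.9 and 114), neither by more than 2-fold. The sense share was lower in aubRK for 6 of 6 members, where it was lower for 49.6% of all transposons, by −7.00 points in gypsy10 and −3.33 points in gypsy5 at the ends of the range. With identical reads counted once, it was lower for 5 of the 6, gypsy being at 15.2% in aubWT and 15.3% in aubRK.

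The widest difference between genotypes was in Ago3. The class took 0.483% of Ago3 aubWT and 4.77% of the Ago3 aubRK library, a 9.88-fold difference. All 6 members were more than 2-fold higher in aubRK, where 45.5% of all transposons were, and 0 were lower by that much (2.44%). gypsy10 had 1078 CPM in aubWT and 12643 in aubRK, 11.7-fold more, and gypsy had 510.2 and 5629, 11-fold more. Tabor had 1095 and 10677 CPM, 9.75-fold more, and gtwin had 846 and 7804, 9.22-fold more. The lower end was formed by gypsy5 and ZAM. gypsy5 had 808 CPM in aubWT and 7184 in aubRK, 8.9-fold more, and ZAM had 489 and 3743, 7.66-fold more. The median of all transposons differed by 0.78 on the log2 scale, by 0.37 with TMM factors, and by 0.02 with DESeq2 size factors, and relative to it the members were still 2.16 (ZAM) to 2.77 (gypsy10) higher.

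Against y w, whose Ago3 library shares the adaptor of aubRK, the difference was smaller and gypsy was an exception. The class took 2.11% of Ago3 y w, and the Ago3 aubRK library was 2.26-fold above it. Over 2-fold higher than in y w were 5 of 6 members (10.6% of all transposons), and 0 were lower by that much (17.9%). In y w, gypsy10 had 4592 CPM, Tabor 4082, gtwin 3630.2, ZAM 1484, gypsy5 1396, and gypsy 5900.0. The first 5 were 2.15-fold (gtwin) to 5.14-fold (gypsy5) higher in aubRK, while gypsy differed by −0.068 on the log2 scale, or by 0.09 relative to the median of all transposons.

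The wild-type Ago3 libraries themselves spanned a wide range, and this is the comparison that does not rest on Ago3 aubRK. The class took 2.11% of y w, 0.483% of aubWT, and 0.259% of w1118. Ago3 aubWT was more than 2-fold below y w for 5 of 6 members (48.8% of all transposons) and above it by that much for 0 (6.5%). For gypsy the gap was 11.6-fold, and for gypsy5 it was 1.73-fold, which turned to 0.19 on the log2 scale relative to the median of all transposons. The median of all transposons itself differed by −0.98, and relative to it 3 members stayed past 2-fold (gypsy, gtwin, and gypsy10), as many as with DESeq2 size factors, against 4 with TMM factors. Ago3 w1118 was more than 2-fold below y w for 6 of 6 (22% of all transposons), by 6.51-fold in ZAM to 15-fold in Tabor, and above it for 0 (8.94%). Adaptor, antibody, library preparation, and genetic background differ among these libraries, and their part in the differences was not tested.

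Compared with Piwi and Aub of the same genotype, the Ago3 aubRK library lay close to Piwi and far from Aub for this class. It was more than 2-fold above Aub aubRK for 6 of 6 members (21.1% of all transposons), from 6.21-fold in ZAM to 9.08-fold in gypsy10, and below it for 0 (2.44%). Piwi aubRK was above Ago3 aubRK for every member, but by 1.07-fold (gypsy) to 1.39-fold (Tabor) only, with 0 members past 2-fold. In aubWT, Piwi was 6.66-fold (ZAM) to 12-fold (Tabor) above Ago3.

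**Figure D2:**
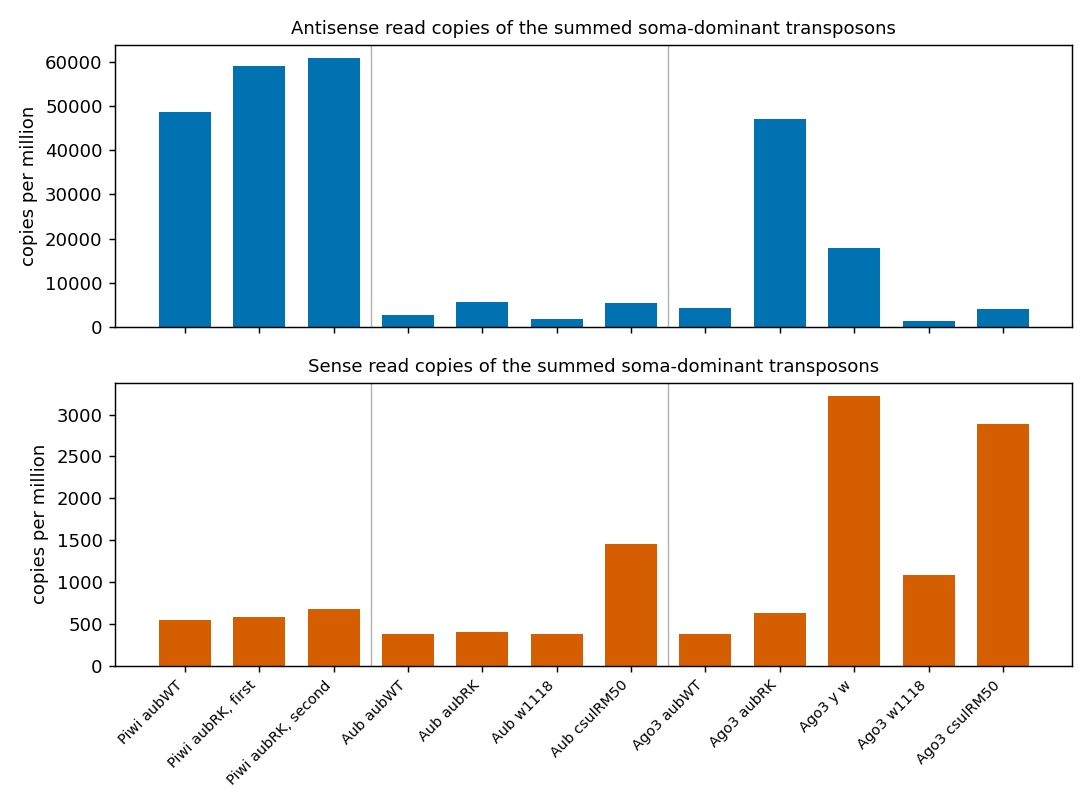
Antisense (top) and sense (bottom) read copies of the summed soma-dominant transposons in each library, in CPM. Bars start at 0 and the panels have different scales. Antisense copies are 4454 in Ago3 aubWT and 47058 in the Ago3 aubRK library, near the Piwi libraries (48708 to 60796), while sense copies differ less (372 and 622).

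The difference between Ago3 aubRK and aubWT was almost wholly in antisense copies. Antisense copies of the class came to 4454 CPM in aubWT and 47058 in aubRK, and sense copies to 372 and 622. Member by member, antisense copies were 9.04-fold (gypsy5) to 12.2-fold (gypsy10) higher. Sense copies were 4.01-fold higher in gypsy, the only member past 2-fold, and 1.94-fold higher in gypsy10, and those of ZAM were nearly equal, at 121 CPM in aubWT and 125 in aubRK. Sense copies of Tabor were lower in aubRK, at 37.4 CPM against 48.4.

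The sense share, which needs no scaling between libraries, was lower in Ago3 aubRK for 6 of 6 members, where it was lower for 77.2% of all transposons. The median difference was smaller for the members, at −5.42 points against −14.4 points over all transposons. With y w as the reference these medians were −7.55 and −12.2 points. ZAM was 24.8% sense in Ago3 aubWT and 3.33% in aubRK, and gypsy was 10.6% and 3.87%. gtwin was 9.35% and 1.43% sense, and gypsy10 was 4.86% and 0.804%. The lowest shares were those of Tabor and gypsy5. Tabor was 4.42% sense in aubWT and 0.35% in aubRK, and gypsy5 was 2.01% and 0.401%. In y w, the library with the adaptor of aubRK, the shares were 5.64% in Tabor, 6.1% in gypsy10, 8.07% in gypsy5, 10.8% in ZAM, 15.8% in gtwin, and 31.6% in gypsy, each above aubRK, with 6 of 6 lower in aubRK (78.9% of all transposons).

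In Piwi, the soma-dominant piRNAs were almost entirely antisense in every library. ZAM had the highest sense share, 4.84% in aubWT and 3.05% and 3.88% in aubRK, followed by gypsy with 2.14%, 2.79%, and 3.07%. gtwin was 1.39% sense in aubWT and 1.08% and 1.61% in aubRK. The other 3 members stayed under 1%: gypsy5 at 0.835%, 0.297%, and 0.219%, gypsy10 at 0.423%, 0.576%, and 0.611%, and Tabor at 0.355%, 0.277%, and 0.35%. gtwin overlapped between the genotypes, while the aubRK pair lay above aubWT for gypsy and gypsy10 and below it for ZAM, gypsy5, and Tabor, the last by less than its counting error in the second library. How often the pair lay on the same side of aubWT over all transposons was not counted. By the means, 2 of 6 were higher (39.7% of all transposons) and 4 lower (60.3%), but with identical reads counted once the direction turned, with 5 higher and 1 lower. That setting changed the first aubRK library only. Over all transposons, 26.7% of Piwi copies in aubWT were sense, and in the germline-dominant class 32.2%.

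The sense shares of the Ago3 aubRK library matched those of Piwi aubRK more closely than those of any other Ago3 library. Between Ago3 aubRK and the mean of both Piwi aubRK libraries, they differed by −0.132 points in ZAM to 0.941 points in gypsy. In aubWT, the same difference between Ago3 and Piwi was 1.18 points in gypsy5 to 19.9 points in ZAM. The sense share was lower in Piwi than in Aub for 6 of 6 members in aubWT (64.7% of all transposons) and for 6 in aubRK (71.2%), and lower in Piwi than in Ago3 for 6 in aubWT (81.5%) and 5 in aubRK (67.8%).

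In Aub, the members were between 1.5% and 22.7% sense. Tabor was 5.49% sense in Aub aubWT, 1.5% in aubRK, 20.9% in w1118, and 13.1% in csulRM50, the widest spread of the class. ZAM was 20.3%, 13.4%, 11.4%, and 15.4% in the same order, and gtwin was 15.9%, 11.5%, 19.8%, and 21.6%. Neither element showed a common order of the genotypes with Tabor. gypsy was 18.4%, 13.4%, 18%, and 22.7% sense, gypsy10 was 11.3%, 4.26%, 13.8%, and 12%, and gypsy5 was 6.86%, 3.53%, 10.4%, and 6.91%. Aub aubRK had the lowest share of the 4 Aub libraries for 5 of the 6 members, the exception being ZAM, which was lowest in w1118. The same was not counted over all transposons, so this is not shown to be particular to the class.

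**Figure D3:**
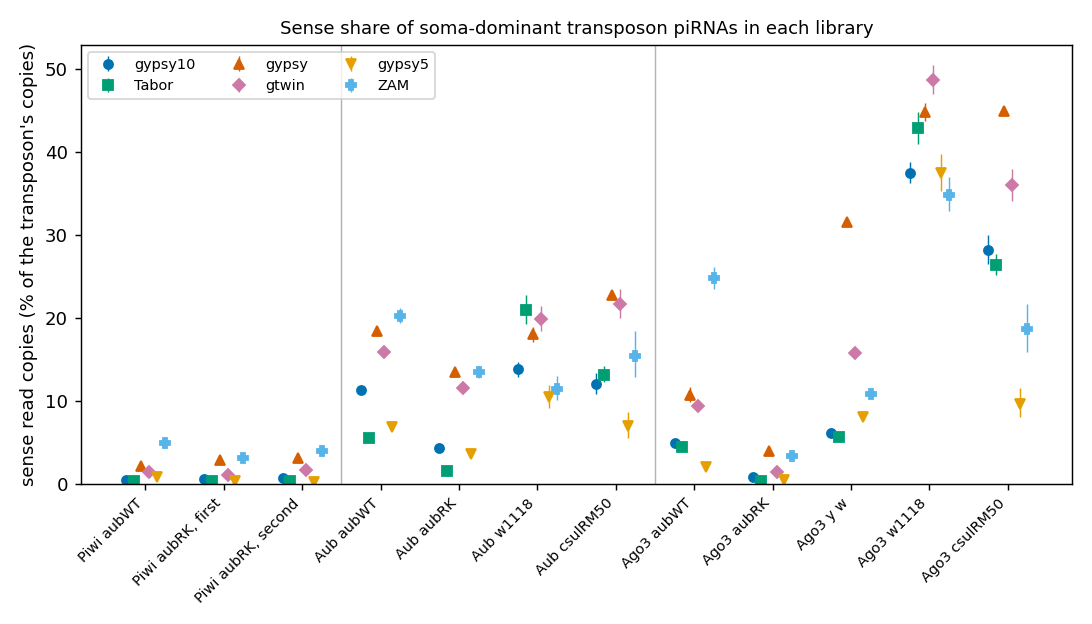
Sense read copies as a percentage of all copies of each soma-dominant transposon, in each of the 12 libraries, with Wilson 95% intervals (counting error only). The Piwi libraries and the Ago3 aubRK library lie at or under 4.84%. Ago3 w1118, from 34.8% (ZAM) to 48.7% (gtwin), lies highest for each element but gypsy, which is at 44.8% there and 44.9% in Ago3 csulRM50.

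In csulRM50, gypsy piRNAs were several-fold more abundant than in w1118, and the other members differed less and in both directions. gypsy had 743 CPM in Aub w1118 and 5622 in Aub csulRM50, 7.56-fold more, and 894 CPM in Ago3 w1118 and 5622 in Ago3 csulRM50, 6.29-fold more. Tabor had 241 and 531 CPM in Aub, 2.2-fold more, and 273 and 582 in Ago3, 2.13-fold more. These were the 2 members over 2-fold higher in csulRM50 with each protein (11.4% of all transposons for Aub and 8.94% for Ago3). ZAM had 204 CPM in Aub w1118 and 74.5 in csulRM50, 2.74-fold less, and 228 and 82.5 in Ago3, 2.76-fold less. gypsy10 had 617 and 278 CPM in Aub, 2.22-fold less, and 641 and 294 in Ago3, 2.18-fold less. These were the 2 members over 2-fold lower, where 28.5% of all transposons were for Aub and 31.7% for Ago3. The gypsy level of Ago3 csulRM50 was also reached in a wild-type strain, with 5900.0 CPM in Ago3 y w. Ago3 w1118 was 6.6-fold below y w for gypsy. The part of csul and of genetic background in the gypsy difference was not tested.

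With identical reads counted once, gypsy was higher in csulRM50 by 1.91 on the log2 scale in Aub and 1.70 in Ago3 (2.92 and 2.65 in read copies) and was the only member past 2-fold, Tabor being at 0.81 and 0.87 and gypsy5 in Ago3 turning to 0.15.

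The lower values did not all hold under another scaling. The median of all transposons differed by −0.57 on the log2 scale in Aub and −0.60 in Ago3, and relative to it 0 members were past 2-fold lower, while gypsy was 3.49 and 3.25 higher and Tabor 1.70 and 1.69. ZAM was then at −0.87 and −0.86, and gypsy10 at −0.58 and −0.53. gypsy5 had 212 and 114 CPM in Aub and 200.4 and 127 in Ago3 (w1118 and csulRM50), log2 differences of −0.89 and −0.65. gtwin had 303 and 238 CPM in Aub and 349 and 273 in Ago3, and its direction depended on the scaling, with −0.34 and −0.35 by library totals and 0.23 and 0.24 relative to the median.

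Through gypsy, the make-up of the class differed between these genotypes. gypsy made up 32% of the soma-dominant copies in Aub w1118 and 82% in Aub csulRM50, and 34.6% and 80.5% in Ago3. In the 8 libraries of the other genotypes, it made up 9.32% to 28%, highest in y w. The whole class was 2.95-fold higher in Aub csulRM50 than in w1118 and 2.7-fold higher in Ago3, but without gypsy it was 0.783-fold and 0.804-fold as high. With identical reads counted once, gypsy stayed highest in csulRM50, with 11601 entries in Aub csulRM50 and 3369 in w1118.

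**Figure D4:**
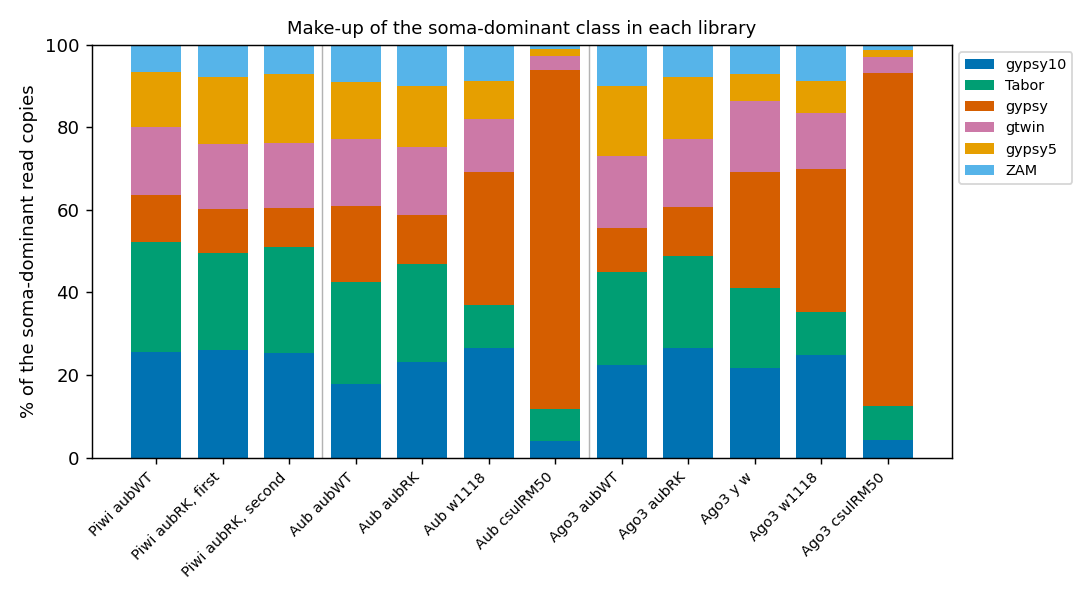
Make-up of the soma-dominant class in each library, as each transposon's percentage of the 6 elements' read copies (bars sum to 100%). gypsy takes 82% in Aub csulRM50 and 80.5% in Ago3 csulRM50, against 9.32% to 34.6% in the other libraries.

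In sense share, the summed class differed between csulRM50 and w1118 by 5.01 points with Aub (16.1% in w1118 and 21.1% in csulRM50) and by −0.50 points with Ago3 (41.9% and 41.4%), but its members differed in both directions. These sums followed the larger part of gypsy in csulRM50. Without gypsy, the class was 15.3% sense in Aub w1118 and 14.1% in csulRM50, and 40.3% and 26.7% in Ago3. Whether the proteins differ was not tested. With Aub, 3 members had a higher share in csulRM50 (75.2% of all transposons) and 3 a lower one (24.8%), by −7.77 points in Tabor to 4.71 in gypsy. With Ago3, 1 was higher (52.9% of all transposons) and 5 were lower (47.1%). gypsy5 was 37.5% sense in Ago3 w1118 and 9.64% in csulRM50, and ZAM was 34.8% and 18.6%. Tabor was 42.9% and 26.4% sense, and gtwin was 48.7% and 36%. gypsy10 and gypsy complete the class. gypsy10 was 37.5% sense in w1118 and 28.2% in csulRM50, and gypsy was 44.8% and 44.9%, so that gypsy, whose level differed most, was the member whose orientation in Ago3 differed least.

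Within w1118 and csulRM50, soma-dominant piRNAs took nearly equal shares of the Ago3 and Aub libraries, which gives no amounts bound to either protein. The class took 0.232% of Aub and 0.259% of Ago3 in w1118, and 0.686% and 0.698% in csulRM50. 0 members differed by more than 2-fold in w1118 (2.44% of all transposons) and 0 in csulRM50 (0%). The orientation did differ, with a higher sense share in Ago3 for 6 of 6 members in w1118 (88.4% of all transposons), by 22 points in Tabor to 28.9 in gtwin. In csulRM50 it was also higher in Ago3 for 6 of 6 (83.5%), by 2.74 points in gypsy5 to 22.2 in gypsy. In aubWT, by contrast, it was higher in Ago3 for 1 of 6, ZAM (65% of all transposons), and lower for 5 (35%), and in aubRK it was lower for 6 of 6 (66.7%). The antibodies and the library preparation differ between these pairs of genotypes. Whether the difference between the pairs is larger than the spread between replicates was not tested.

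Across the 12 libraries, 5 of the members varied together and gypsy varied apart from them. The Pearson correlations of log2(CPM + 1) were 0.937 to 0.992 over the 10 pairs without gypsy and 0.41 to 0.631 over the 5 pairs with it (12 libraries, a description of libraries that share genotypes, antibodies, and scaling). Without Ago3 aubRK they were 0.929 to 0.991 and 0.357 to 0.6003 over 11 libraries. gypsy was also the member with the narrowest range as a ratio of highest to lowest, from 510.2 CPM (Ago3 aubWT) to 6326 (first Piwi aubRK), with a median of 5622. ZAM ranged from 74.5 CPM (Aub csulRM50) to 4635 (first Piwi aubRK) with a median of 546, gypsy5 from 114 to 10250.2 with a median of 851, and Tabor from 241 to 15823 with a median of 1262. Whether reads that match several of these related elements equally well were counted on each is not given in the sources used here, and how far this links the members was not tested.

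The transposons most like the summed class over the 12 libraries were Stalker2 (Pearson's r = 0.971), Quasimodo (0.93), and Idefix (0.895), all from the intermediate class. The same elements ranked highest without Ago3 aubRK (0.968, 0.924, and 0.883). Over the 3 nearest elements of each member, 13 of 18 were of the intermediate class, 5 had no class, and none was germline dominant. Stalker2 had 22636 CPM with Piwi, 3041 with Aub, and 2277 with Ago3 in aubWT, and 16763 in the Ago3 aubRK library. Thus the order of these libraries was that of the soma-dominant class, except that Stalker2 was lower in Ago3 than in Aub. Of 11 other transposons of the gypsy group known from follicle cells or flamenco, 6 were over 2-fold higher in Ago3 aubRK than in aubWT (45.5% of all transposons) and 0 lower (2.44%). Their median log2 difference was 1.18, against the class median of 3.24. This list and the intermediate class share elements, among them Stalker2, Quasimodo, and Idefix, so they are not separate groups. All 10 intermediate transposons were over 2-fold higher (median 2.29), whereas 2 of 19 germline-dominant ones were higher and 1 lower (median −0.21).

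In the comparison of Piwi with Aub in aubWT, these partly overlapping groups fell in the same order. Over 2-fold higher with Piwi were 6 of the 11 listed transposons (median log2 difference 1.28), 9 of the 10 intermediate ones (median 2.20), and 2 of the 19 germline-dominant ones (median 0.08). This compares with 6 of 6 members (median 3.98) and 30.9% of all transposons. In csulRM50 against w1118, 2 of the 11 listed transposons were over 2-fold higher and 3 lower in both Aub and Ago3. Of all transposons, 11.4% were higher and 28.5% lower in Aub, and 8.94% and 31.7% in Ago3. The intermediate class took 16.8% of Piwi and 4.94% of Aub in aubWT, and the germline-dominant class 37.5% and 51.9%.

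**Figure D5:**
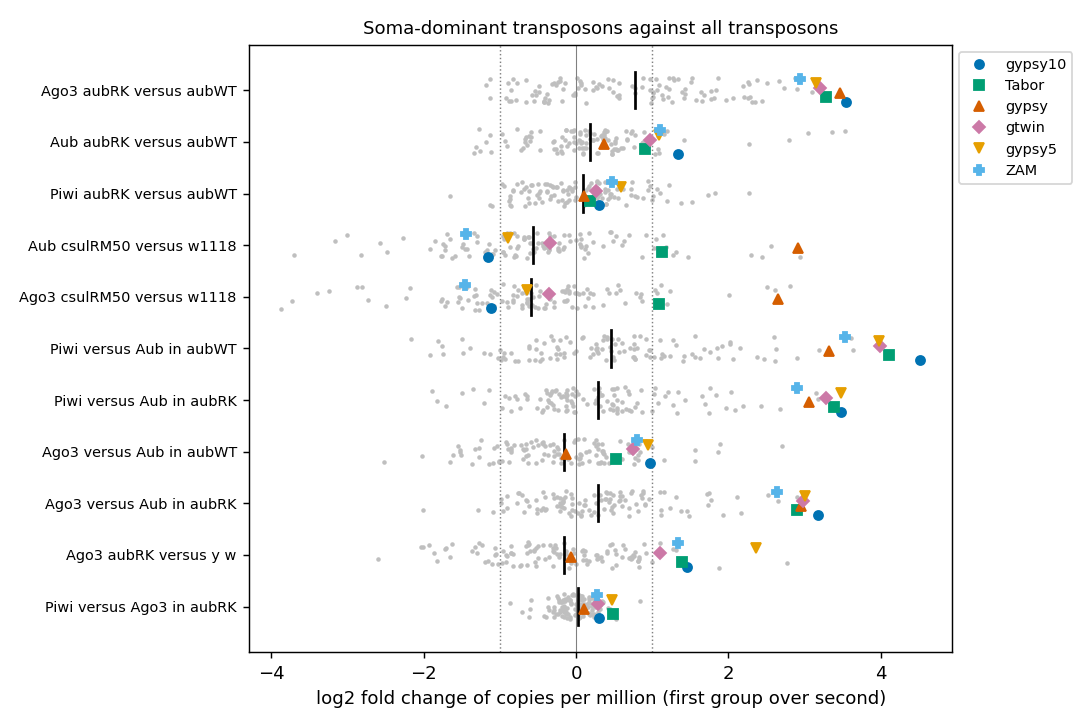
Log2 fold changes in CPM for the 6 soma-dominant transposons (coloured symbols) and the other transposons with a mean of at least 100 copies (grey points) in 11 comparisons, with the median of all 123 as a black bar and 2-fold as dotted lines. The members lie at the upper end where Piwi, or the Ago3 aubRK library, is set against Aub (2.63 to 4.51), and they split in csulRM50 against w1118 (−1.46 for ZAM to 2.92 for gypsy).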

How the data were processed

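Small RNAs bound to Piwi, Aub, or Ago3 were sequenced from 12 ovary libraries in 11 groups (100 ovaries per Piwi or Aub immunoprecipitation and 150 per Ago3). The authors trimmed reads with cutadapt 2.3, aligned them end to end with STAR 2.4.2a to consensus transposons, and kept the best-scoring alignments, with dm3 as the build named in the submitters' processing notes. The deposited values are raw counts per transposon and orientation, in one column of read copies and another of entries, where a sequence read many times appears to count once. Entries equalled copies throughout in the 3 barcoded libraries, so a switch to entries changed only the libraries without a barcode. The files were left unfiltered and 0 columns of sample values were left unused.

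Copies were divided by the library total on transposons (1338017 to 47217032) and compared as log2(CPM + 1) between groups over 123 transposons, those that averaged 100 copies or more. Sense shares were compared over those of the 123 with at least 50 copies in each library compared. Piwi aubRK (2 libraries) and aubWT (1 library) were tested with the edgeR 4.0.16 quasi-likelihood test (R 4.3.3) on read copies with library totals and Benjamini-Hochberg adjustment over all 123. It was also run on simulated counts with the mean levels and totals of these libraries and the same preset spread for every transposon. There it recovered 357 of 600 planted 2-fold and 594 of 600 planted 4-fold changes, with 13 and 28 false calls among 1860 unchanged values each. The preset spread was not estimated from these libraries and held no adaptor difference, so these counts give no error rate for the real comparison. All other comparisons had no test. Python 3.11.15, pandas 2.3.3, numpy 2.4.6, scipy 1.17.1, and matplotlib 3.10.9 were used for the rest.

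Alternatives were TMM factors, DESeq2 1.42.0 (size factors and test), entries in place of copies, sense or antisense copies alone, a pseudocount of 10 CPM, no minimum or a mean of 1000 copies, members with at least 500 copies only, y w as the Ago3 reference, and each Piwi aubRK library left out. Differences relative to the median of all transposons and correlations without Ago3 aubRK were added after the data were seen. The members, the list of 17 gypsy-group transposons (6 of them members), and the tests were chosen with earlier results of these data known. Named were all members, the 3 transposons with the highest Pearson correlation to the summed members, and the listed transposons as counts.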

Additional observations from a re-analysis of the deposited data

Results flagged for a closer look

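The difference between Ago3 and Aub in sense share had opposite signs in different genotypes for each of the 6 members, and the difference between genotypes was not tested, each value coming from 1 library per protein. For Tabor, Ago3 minus Aub was −1.07 points in aubWT, −1.15 in aubRK, 21.97 in w1118, and 13.3 in csulRM50. For gtwin it was −6.53, −10.1, 28.9, and 14.4 points in the same order. In both elements the w1118 and csulRM50 pairs were thus above zero and the aubWT and aubRK pairs below it. gypsy10 had −6.40, −3.46, 23.7, and 16.2 points, gypsy5 had −4.84, −3.13, 27.1, and 2.74 points, and gypsy had −7.76, −9.56, 26.8, and 22.2 points. ZAM was the exception, with 4.50 points in aubWT, −10.1 in aubRK, 23.4 in w1118, and 3.15 in csulRM50, the last within its counting error of 0. Antibody source and library preparation run alongside these genotypes, and their part was not tested.

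In abundance, gypsy was lower in Ago3 than in Aub by −0.13 on the log2 scale in aubWT and higher by 2.96 in aubRK and 0.27 in w1118, with 0.00 in csulRM50. This difference between genotypes was not tested, and its highest value rests on the Ago3 aubRK library.

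Between aubRK and aubWT, the sense share of gypsy10 differed by 0.171 points in Piwi, −7.00 in Aub, and −4.06 in Ago3, and that of gypsy by 0.788, −4.97, and −6.78 points. The difference between proteins was not tested. Between csulRM50 and w1118, the sense share of ZAM differed by 4.03 points in Aub and by −16.2 points in Ago3, in 1 library each, and this difference was not tested either.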

How the results depend on the processing

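The counts of members over 2-fold in the report depended most on orientation. With sense copies alone, 1 member was over 2-fold apart between aubRK and aubWT in Ago3 (6 with both orientations), 0 in Aub (3), and 1, lower, in Piwi (0). For Piwi against Aub, 1 was in aubWT and 1 in aubRK (6 and 6). For Ago3 against Aub, 1 was in aubWT (0), 1 in aubRK (6), 6 in w1118 (0), and 2 in csulRM50 (0). With sense copies alone, 14 log2 differences turned sign. Between aubRK and aubWT these were Tabor in Ago3 (−0.36), Tabor (−0.93), gypsy10 (−0.060), and gypsy (−0.085) in Aub, and gypsy5 (−1.08) and ZAM (−0.012) in Piwi. Against Aub they were gypsy10 in Piwi aubWT (−0.21), gypsy5 in Piwi aubRK (−0.29), gtwin (−0.025) and gypsy5 (−0.13) in Ago3 aubRK, gypsy5 in Ago3 w1118 (1.72), and the elements named in the report in Ago3 aubWT (gtwin, gypsy10, and gypsy5). With y w in place of aubWT, gypsy in Ago3 aubRK turned to −0.068. With antisense copies alone, 2 members passed for Ago3 against Aub in aubWT (0).

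With DESeq2 size factors, 1 member passed in Aub aubRK against aubWT (3), 2 in csulRM50 against w1118 with Aub and 2 with Ago3 (4 and 4), and 3 for Ago3 against Aub in aubWT (0). TMM factors gave 2 in Ago3 csulRM50 and 2 for Ago3 against Aub in aubWT. Relative to the median of all transposons, chosen after seeing the data, the numbers were 1 in Aub aubRK, 2 in Aub csulRM50, 2 in Ago3 csulRM50, and 2 for Ago3 against Aub in aubWT. With entries, 1 passed in each csulRM50 comparison, and members with a higher sense share came to 1 in Aub aubRK (0), 5 in Piwi aubRK (2), 1 in Aub csulRM50 (3), and 0 in Ago3 csulRM50 (1). The edgeR test of Piwi called 1 member, TMM factors 2, DESeq2 2, and entries 0, where over all transposons entries called 0 (4 at an unadjusted p under 0.05). The causes were not tested.

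Without either Piwi aubRK library, 0 members were over 2-fold from aubWT and 6 were over 2-fold above Aub, and 2 to 3 had a higher sense share than aubWT. The other 85 recomputed counts stayed within 1.5 times their value. Log2 differences of single members also turned sign 9 times with antisense copies alone, all between Ago3 and Aub in w1118 or csulRM50, 7 times with entries, 5 with DESeq2 size factors, 3 relative to the median, and 2 with TMM factors. No paired analysis was possible because the groups compared share only replicate number 1.

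Piwi aubRK was the only group with more than 1 library, so the other groups have no replicate spread. The counting error of a sense share reached at most 2.87 points to either side.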
